A study of Mus musculus with 10 samples.

Results

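RNA sequencing counts of 45 genes that carry cells from G2 into and through mitosis were described in LSK cells of preleukemic mice, as 45 of the 25078 genes listed. The genes were taken by symbol from a fixed list: mitotic cyclins and kinases, the spindle checkpoint, mitotic kinesins, kinetochore and cytokinesis genes. All 45 were found, had counts in every library and were among the 11682 expressed genes, those with a mean RPKM (reads per kilobase of exon, scaled to library size) of 1 or more in a genotype. LSK cells are bone marrow cells without lineage markers that carry Sca-1 and c-Kit, the compartment of hematopoietic stem and early progenitor cells.

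CM mice carried a conditional Cbfb-MYH11 knock-in with Mx1-Cre (Cbfb56M/+/Mx1-Cre, n = 5), and CM/miR-126Δ/Δ mice carried in addition floxed miR-126 alleles (Cbfb56M/+/miR-126flox/flox/Mx1-Cre, n = 5). All 10 mice carried the fusion allele, all had received poly(I:C) at an age of 6 to 8 weeks to induce Cre, and all were preleukemic at 6 weeks after induction, with 1 library per mouse. No mouse without the fusion was among them, so the comparison asks what the loss of miR-126 does in cells that already carry Cbfb-MYH11. Mx1-Cre is driven by an interferon-inducible promoter that is active in many hematopoietic and other cells, so miR-126 was not deleted in LSK cells alone. Total counts were 23649233 to 33202086 per library. Mir126a, the precursor of the deleted microRNA (chr2:26591357-26591429 in mm10), had 4, 5, 0, 2 and 3 counts in the CM group, mouse 1 to mouse 5, and none in any CM/miR-126Δ/Δ library, too few in these long-RNA libraries to check the label of a single mouse. As labelled, the LSK gene Kit was at 894 CPM (counts scaled to library size) and Cd34 at 909 CPM on average, with Ly6a (Sca-1) at 57.9 CPM.

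Entry into mitosis is driven by the kinase CDK1 with cyclins A and B, which CDC25 phosphatases switch on. Chromosomes are then bound to spindle microtubules at kinetochores, Aurora B corrects wrong attachments, the spindle checkpoint delays anaphase until all are attached, and kinesins and cytokinesis proteins separate the daughter cells. Most of these genes are transcribed in a late wave of the cell cycle, so in a bulk sample their mRNA rises with the share of cells in G2 and mitosis. Fewer such cells and less RNA in each cannot be told apart here.

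The mitotic genes were expressed at nearly the same mean level in both genotypes. None of the 45 passed the call used for single genes (p at or below 0.01, at least 1.5-fold, mean RPKM at least 1), which 0.288% of the 18747 genes tested passed, and none had an adjusted p under 0.05, as 0.0107% of all genes did (edgeR quasi-likelihood test, Benjamini-Hochberg). At an unadjusted p under 0.05, 1 of 45 was higher in CM/miR-126Δ/Δ cells and 0 were lower, beside 3.29% and 3.32% of all genes. The fitted log2 fold changes (CM/miR-126Δ/Δ against CM) were above 0 for 34 genes and below 0 for 11, ran from −0.06 for Aurkb to 0.20 for Ect2 and had a median of 0.035, beside −0.019 over all expressed genes. Without CM/miR-126Δ/Δ mouse 1 the median was −0.009, with 20 genes above and 25 below 0. The 95% interval of the difference lay within 1.5-fold in either direction for 45 of 45 genes, beside 86.7% of expressed genes, and within 1.25-fold for 40 of 45, beside 61.6%. The CPM ranges of the genotypes overlapped for every one of the 45 genes (0 without overlap), while 1.38% of expressed genes had no overlap.

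**Figure D1:**
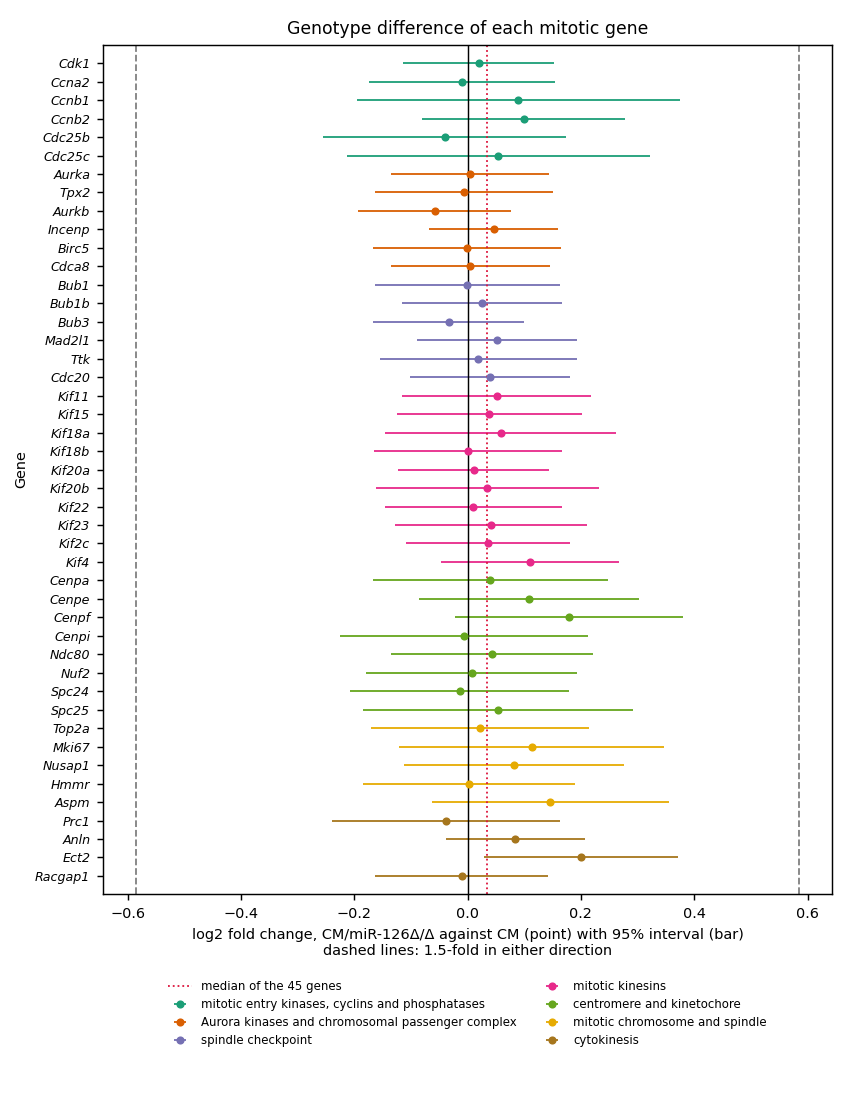
Fitted log2 fold change of each of the 45 mitotic genes between CM/miR-126Δ/Δ and CM LSK cells (x axis, log2 units, n = 5 mice each), with the 95% interval as a bar and colours for the role of the gene. All 45 bars lie between the dashed lines at 1.5-fold, and 1 bar, that of Ect2, does not reach 0.

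The mitotic genes varied more between mice in the CM/miR-126Δ/Δ group. The coefficient of variation of CPM was the higher one in the CM/miR-126Δ/Δ group for 38 of the 45 genes (84.4%), beside 50.3% of expressed genes. Its median over the 45 genes was 6.65% in CM and 11.6% in CM/miR-126Δ/Δ mice, beside 9.34% and 9.44% over expressed genes. By this median the mitotic genes varied less than expressed genes in CM mice and more in CM/miR-126Δ/Δ mice. Leaving out each mouse in turn gave 35 to 42 of 45. The share over expressed genes then ran from 41.7% (without CM/miR-126Δ/Δ mouse 4) to 56.4% (without CM mouse 3). These counts are a description, because the genes vary together between mice and are not independent, and no test of the spread itself was run.

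The genes share promoter sequence features that their choice did not use. Many mitotic promoters are known to hold a cell cycle genes homology region (CHR), which the DREAM and MuvB complexes bind, and CCAAT boxes, which NF-Y binds. In RefSeq promoters (GRCm38.p6, the assembly of mm10, from 250 bases before the transcript start to 50 after), 38 of the 45 genes had an entry. The letters TTTGAA or TTCGAA of a CHR, read on both strands, were in 30 of these 38 (78.9%), beside 16.4% of the 9096 promoters of expressed genes and 21.7% of all 27025 genes of the table. Within 50 bases of the start, a limit set after the positions were seen, they were in 28 of 38 (73.7%), beside 4.43% and 6.12%. CCAAT on either strand was in 28 of 38 (73.7%), beside 43.3% of promoters of expressed genes. E2F-like letters (TTGGCGC or TTCCCGC or TTCGCGC or TTGGCGG, both strands) were in 8 of 38 (21.1%). They were in 21.5% of promoters of expressed genes and 11.6% of all genes of the table. Among 117 further mitosis genes, 96 had an entry, with a CHR in 49.0% (33.3% within 50 bases of the start), CCAAT in 64.6% and E2F-like letters in 41.7%. Among 46 DNA replication genes, 37 had an entry, with a CHR in 18.9%, CCAAT in 62.2% and E2F-like letters in 73.0%. A match of such short letters is a description and not a bound site, and genes with several RefSeq starts had more chances of a match.

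**Figure D2:**
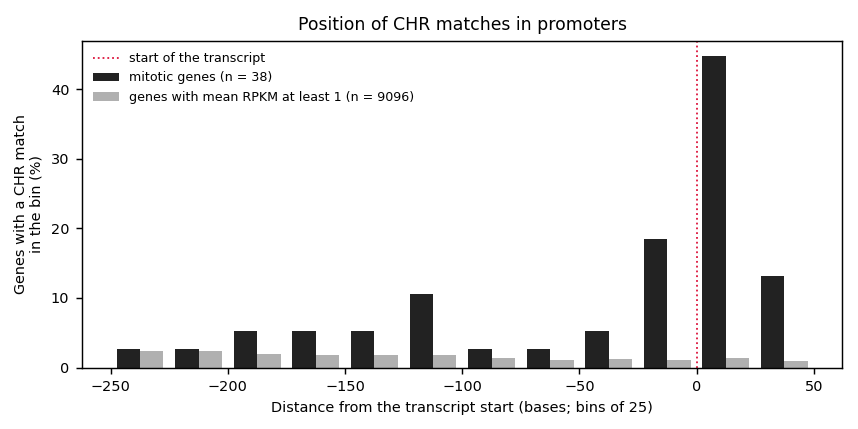
Share of genes (y axis, percent) with CHR letters beginning in each bin of 25 bases, by distance from the transcript start (x axis, bases), for the 38 mitotic genes with a promoter entry (black) and 9096 expressed genes, at a mean RPKM of 1 or more (grey). The highest black bar, 44.7%, stands just after the start, where the grey bar is at 1.32%.

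Windows of 100 bases, from 70 before the start to 29 after it with the first transcribed base as 0, are shown for 12 of the genes described here to let the spacing of both elements be read. CHR and CCAAT letters on either strand are in capitals (TTCAAA and ATTGG are the reverse strand forms), and the 11 windows besides Ccnb1 were taken because they hold a CHR, where RefSeq gives several starts at the first with one.
Cdk1, chr10:69352883-69352982, minus strand: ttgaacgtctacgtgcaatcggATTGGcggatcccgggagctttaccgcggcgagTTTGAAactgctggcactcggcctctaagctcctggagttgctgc
Ccnb1, chr13:100786457-100786556, minus strand: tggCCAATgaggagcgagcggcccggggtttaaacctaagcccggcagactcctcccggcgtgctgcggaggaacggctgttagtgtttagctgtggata
Ccnb2, chr9:70421525-70421624, minus strand: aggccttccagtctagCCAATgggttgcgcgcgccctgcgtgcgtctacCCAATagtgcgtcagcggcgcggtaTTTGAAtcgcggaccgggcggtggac
Bub3, chr7:131560300-131560399, plus strand: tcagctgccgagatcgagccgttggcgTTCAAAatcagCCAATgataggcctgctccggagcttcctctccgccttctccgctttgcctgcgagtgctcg
Kif11, chr19:37376312-37376411, plus strand: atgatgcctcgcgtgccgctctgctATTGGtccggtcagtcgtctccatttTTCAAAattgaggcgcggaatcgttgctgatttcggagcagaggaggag
Kif4, chrX:100625995-100626094, plus strand: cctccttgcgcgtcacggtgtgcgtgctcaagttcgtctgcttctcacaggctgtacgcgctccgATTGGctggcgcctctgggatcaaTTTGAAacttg
Cenpa, chr5:30666816-30666915, plus strand: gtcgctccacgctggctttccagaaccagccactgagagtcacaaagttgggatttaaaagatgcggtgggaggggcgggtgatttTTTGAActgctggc
Cenpf, chr1:189688057-189688156, minus strand: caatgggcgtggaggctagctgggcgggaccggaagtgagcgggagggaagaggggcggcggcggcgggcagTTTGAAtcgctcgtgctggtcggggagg
Top2a, chr11:99024160-99024259, minus strand: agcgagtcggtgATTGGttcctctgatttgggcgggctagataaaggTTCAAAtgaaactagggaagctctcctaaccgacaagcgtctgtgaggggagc
Aspm, chr1:139454703-139454802, plus strand: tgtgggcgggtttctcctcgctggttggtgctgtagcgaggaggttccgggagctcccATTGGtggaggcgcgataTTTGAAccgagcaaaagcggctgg
Prc1, chr7:80294381-80294480, plus strand: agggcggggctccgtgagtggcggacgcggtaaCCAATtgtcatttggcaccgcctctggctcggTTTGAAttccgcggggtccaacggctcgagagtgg
Ect2, chr3:27153825-27153924, minus strand: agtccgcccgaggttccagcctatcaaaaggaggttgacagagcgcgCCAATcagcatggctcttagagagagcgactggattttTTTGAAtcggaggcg
The CHR began 4 bases after the start in Ccnb2, 2 after it in Cenpf and 6 after it in Aspm, 19 before it in Kif11 and 23 before it in Top2a. Ccnb1 had a CCAAT box at −67 and no CHR letters in its whole promoter entry. The nearest CHR letters of Mki67 lay at −98. Mad2l1 had neither element in the 300 bases. Letters cut by the edge of a window or outside it are not marked. The nearest CCAAT letters began at −71 in Cenpf and at −86 in Cenpa, and the promoter entry of Cdk1 held 2 CHR matches.

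The deleted microRNA's main product, mmu-miR-126a-3p, was read from RefSeq (chr2:26591402-26591423, plus strand) with its seed, bases 2 to 8, in capitals, to set it against the 3′ ends of the mitotic mRNAs.
mmu-miR-126a-3p: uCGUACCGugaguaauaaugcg
The 7 letters that pair with this seed (CGGTACG) and the 6 that pair with bases 2 to 7 (GGTACG) were in the 3′ untranslated regions of 0 of the 45 mitotic genes. They were in 0.259% and 3.58% of the 9638 expressed genes that had such a region in the reference transcripts.

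Levels among the genes ran over a wide range per length of mRNA. Top2a, the DNA topoisomerase that untangles chromosomes, was highest at a mean RPKM of 155, and Mki67, the proliferation antigen Ki-67 that coats mitotic chromosomes, followed at 100.2, while Cenpi, of the inner kinetochore, was lowest at 6.72. The fewest counts in any mouse were 310, for Cdc25c, and Mki67 had at least 21155 in each.

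Among the 6 genes of mitotic entry, 4 had a log2 fold change above 0 and 2 below, with a median of 0.037 (−0.012 without CM/miR-126Δ/Δ mouse 1), and none had p under 0.05. Ccna2, cyclin A2, had the highest mean RPKM of them, 48.6. Ccna2 was at 163, 163, 167, 173 and 158 CPM in CM mice 1 to 5 and at 191, 177, 153, 157 and 140.1 CPM in CM/miR-126Δ/Δ mice 1 to 5. The 5 CM mice lay close together, and CM/miR-126Δ/Δ mice 1 and 2 lay above and 3 to 5 below all of them. Its means were 165 ± 5.78 CPM in CM mice and 164 ± 20.1 CPM in the CM/miR-126Δ/Δ group (mean ± SD, n = 5 each; log2 fold change −0.0100, 95% interval −0.17 to 0.15, adjusted p = 0.977), and the sign of this difference turned with the upper-quartile scaling. Ccnb2 was at 55.04, 66.9, 62.2, 71.6 and 65.4 CPM in CM mice 1 to 5 and at 76.8, 74.8, 57.9, 69.05 and 65.2 CPM in CM/miR-126Δ/Δ mice 1 to 5. Ccnb2, cyclin B2, had the smallest p of the 6 genes, at 64.2 ± 6.15 CPM in CM mice and 68.8 ± 7.64 CPM in the CM/miR-126Δ/Δ group (mean ± SD, n = 5 each; log2 fold change 0.10, 95% interval −0.08 to 0.28, adjusted p = 0.765). The log2 fold change of Ccnb2 was 0.06 without CM mouse 1, 0.15 without CM/miR-126Δ/Δ mouse 3 or CM mouse 4 and 0.17 with the trend of fold change with exon length removed. Ranges overlapped, with CM mouse 1 lowest and CM/miR-126Δ/Δ mice 1 and 2 highest. Ccnb1, cyclin B1, is named after its values were seen, because its spread differed most. Ccnb1 was at 18.2, 18.6, 19.6, 18.05 and 18.1 CPM in CM mice 1 to 5 and at 26.3, 21.4, 18.1, 18.8 and 13.96 CPM in CM/miR-126Δ/Δ mice 1 to 5. Its coefficient of variation was 3.49% in CM and 23.0% in CM/miR-126Δ/Δ mice, with the highest and the lowest of all mice both in the latter. Its log2 fold change was 0.09, and −0.03 without CM/miR-126Δ/Δ mouse 1. Cdk1, the kinase these cyclins activate, was also added for its role, and its log2 fold change was 0.02 (SE 0.0621). RefSeq lists pseudogenes named after Ccnb1 and Ccnb2 (Ccnb1-ps and Ccnb2-ps), and after Kif22 and Kif4. Any reads shared with such copies could have been lost or split in the counting.

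The 6 genes of the Aurora kinases and the chromosomal passenger complex had 3 values above and 3 below 0, with a median of 0.002. Without CM/miR-126Δ/Δ mouse 1 there was 1 above 0, with a median of −0.019, and without CM mouse 4 there were 5, with a median of 0.030. Incenp, the scaffold of the complex, had the highest mean RPKM, 43.5. Incenp was at 123, 139, 139.5, 143 and 138 CPM in CM mice 1 to 5 and at 142, 143, 138, 137 and 144 CPM in CM/miR-126Δ/Δ mice 1 to 5. CM mouse 1 stood below the other 9, which lay close together. Its means were 136 ± 7.74 CPM in CM mice and 141 ± 3.24 CPM in the CM/miR-126Δ/Δ group (mean ± SD, n = 5 each; log2 fold change 0.05, 95% interval −0.07 to 0.16, adjusted p = 0.845), and without CM mouse 1 the log2 fold change was 0.02. Aurkb, the kinase of the complex, had the smallest p. Aurkb was at 70.1, 76.4, 76.95, 84.8 and 74.1 CPM in CM mice 1 to 5 and at 78.8, 70.04, 71.7, 78.6 and 68.1 CPM in CM/miR-126Δ/Δ mice 1 to 5. The genotypes overlapped almost fully, at 76.5 ± 5.395 CPM in CM mice and 73.5 ± 4.96 CPM in the CM/miR-126Δ/Δ group (mean ± SD, n = 5 each; log2 fold change −0.06, 95% interval −0.19 to 0.08, adjusted p = 0.827), and CM/miR-126Δ/Δ was higher in 1 of the 5 pairs of mice with the same number. The log2 fold change of Aurkb was −0.002 with the trend of fold change with exon length removed and −0.006 without CM mouse 4. Birc5 (survivin), Cdca8 (borealin), Aurka and its activator Tpx2 had log2 fold changes between −0.007 and 0.005.

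The 6 spindle checkpoint genes had 4 values above and 2 below 0, with a median of 0.022, and without CM/miR-126Δ/Δ mouse 1 they had 2 above 0 and a median of −0.010. Bub3, which holds BUB1 and BUBR1 at kinetochores, had the highest mean RPKM, 44.2. Bub3 was at 99, 87.5, 93.4, 102 and 91.1 CPM in CM mice 1 to 5 and at 91.9, 82.1, 100.4, 95.4 and 91.9 CPM in CM/miR-126Δ/Δ mice 1 to 5. Bub3 was lowest in CM/miR-126Δ/Δ mouse 2, one of the mice in which most other mitotic genes were high. Its means were 94.5 ± 5.74 CPM in CM mice and 92.3 ± 6.71 CPM in the CM/miR-126Δ/Δ group (mean ± SD, n = 5 each; log2 fold change −0.03, 95% interval −0.17 to 0.10, adjusted p = 0.914), and the sign turned with the length trend removed, without CM mouse 4 and without CM/miR-126Δ/Δ mouse 2. Mad2l1, the inhibitor that keeps CDC20 from the anaphase-promoting complex, had the smallest p of the 6. Mad2l1 was at 58.9, 58.5, 58.8, 65.1 and 56.7 CPM in CM mice 1 to 5 and at 68.9, 63.9, 59.7, 62.2 and 54.2 CPM in CM/miR-126Δ/Δ mice 1 to 5. Its means were 59.6 ± 3.18 CPM in CM mice and 61.8 ± 5.42 CPM in the CM/miR-126Δ/Δ group (mean ± SD, n = 5 each; log2 fold change 0.05, 95% interval −0.09 to 0.19, adjusted p = 0.862), with CM mouse 4 above the other CM mice and overlapping ranges. The log2 fold change of Mad2l1 was 0.02 without CM/miR-126Δ/Δ mouse 1, 0.10 without CM mouse 4 and 0.11 with the length trend removed.

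All 10 mitotic kinesins had fitted values above 0, between 0.001 for Kif18b and 0.11 for Kif4, with a median of 0.037 and no p under 0.05. Without CM/miR-126Δ/Δ mouse 1, 5 of 10 were above 0. Kif11, the motor that pushes the spindle poles apart, had the highest mean RPKM, 47.1. Kif11 was at 205, 226, 225, 229 and 236 CPM in CM mice 1 to 5 and at 259.8, 258, 204, 233 and 206 CPM in CM/miR-126Δ/Δ mice 1 to 5. CM/miR-126Δ/Δ mice 1 and 2 lay above all CM mice, and mice 3 and 5 lay beside CM mouse 1, the lowest. Its means were 224 ± 11.3 CPM in CM mice and 232 ± 26.8 CPM in the CM/miR-126Δ/Δ group (mean ± SD, n = 5 each; log2 fold change 0.05, 95% interval −0.12 to 0.22, adjusted p = 0.893), and without CM/miR-126Δ/Δ mouse 2 the log2 fold change was 0.01. Kif4, a chromosome-bound motor of the central spindle, had the smallest p. Kif4 was at 63.03, 75.6, 69.01, 75.8 and 74.2 CPM in CM mice 1 to 5 and at 88.1, 81.02, 71.4, 75.9 and 69.5 CPM in CM/miR-126Δ/Δ mice 1 to 5. It was higher in 4 of 5 numbered pairs, with means of 71.5 ± 5.48 CPM in CM mice and 77.2 ± 7.55 CPM in the CM/miR-126Δ/Δ group (mean ± SD, n = 5 each; log2 fold change 0.11, 95% interval −0.05 to 0.27, adjusted p = 0.765), and a log2 fold change of 0.07 without CM/miR-126Δ/Δ mouse 1.

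Among the 8 centromere and kinetochore genes, 6 values were above and 2 below 0, with a median of 0.042, and without CM/miR-126Δ/Δ mouse 1 there were 4 above 0 and the median was −0.013. Cenpa, the histone H3 variant that marks centromeres, had the highest mean RPKM, 35.9. Cenpa was at 47.5, 59.2, 59.4, 59.8 and 53.7 CPM in CM mice 1 to 5 and at 65.1, 59.5, 49.4, 65.4 and 47.8 CPM in CM/miR-126Δ/Δ mice 1 to 5. The ranges overlapped, and CM mouse 1 and CM/miR-126Δ/Δ mice 3 and 5 were low. Its means were 55.9 ± 5.34 CPM in CM mice and 57.5 ± 8.42 CPM in the CM/miR-126Δ/Δ group (mean ± SD, n = 5 each; log2 fold change 0.04, 95% interval −0.17 to 0.25, adjusted p = 0.938), and the sign turned without CM mouse 1. Cenpf, a large protein of the outer kinetochore that accumulates in G2, had the smallest p of these 8. Cenpf was at 151, 168, 156, 164 and 180.2 CPM in CM mice 1 to 5 and at 212, 218, 174, 151 and 172 CPM in CM/miR-126Δ/Δ mice 1 to 5. CM/miR-126Δ/Δ mice 1 and 2 lay above every other mouse, mice 3 and 5 lay within the CM range and mouse 4 just below it. The means were 164 ± 11.3 CPM in CM mice and 186 ± 28.6 CPM in the CM/miR-126Δ/Δ group (mean ± SD, n = 5 each; log2 fold change 0.18, 95% interval −0.02 to 0.38, adjusted p = 0.764). The log2 fold change of Cenpf was 0.08 with the trend of fold change with exon length removed, 0.12 without CM/miR-126Δ/Δ mouse 2 and 0.26 without mouse 4. The edgeR p was 0.228 without mouse 2 and 0.00804 without mouse 4, the lowest of them, with an adjusted p of 0.906 and 0.363.

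The 5 genes of mitotic chromosomes and the spindle all had fitted values above 0, with a median of 0.082. The median was 0.023 with the length trend removed, and without CM/miR-126Δ/Δ mouse 1 it was 0.021, with 3 of 5 genes above 0. Top2a was at 808, 796, 781, 829.5 and 802 CPM in CM mice 1 to 5 and at 949, 891, 761, 750.0 and 724 CPM in CM/miR-126Δ/Δ mice 1 to 5. The CM mice lay within a narrow band, at a coefficient of variation of 2.20%, against 12.1% in CM/miR-126Δ/Δ mice, whose mice 1 and 2 lay above the band and mice 3 to 5 below it. Its means were 803 ± 17.7 CPM in CM mice and 815 ± 98.98 CPM in the CM/miR-126Δ/Δ group (mean ± SD, n = 5 each; log2 fold change 0.02, 95% interval −0.17 to 0.21, adjusted p = 0.975), and the sign turned without mouse 1 or mouse 2 of the CM/miR-126Δ/Δ group. Aspm, a spindle pole protein, had the smallest p. Aspm was at 137, 161, 148, 146 and 165 CPM in CM mice 1 to 5 and at 193, 199.6, 154, 137 and 155 CPM in CM/miR-126Δ/Δ mice 1 to 5. Again CM/miR-126Δ/Δ mice 1 and 2 were highest of all and mouse 4 lowest, with means of 152 ± 11.3 CPM in CM mice and 168 ± 27.3 CPM in the CM/miR-126Δ/Δ group (mean ± SD, n = 5 each; log2 fold change 0.15, 95% interval −0.06 to 0.36, adjusted p = 0.765). The log2 fold change of Aspm was 0.06 with the length trend removed, 0.08 without CM/miR-126Δ/Δ mouse 2 and 0.23 without mouse 4. Mki67, added for its common use as a marker of cycling cells, was at 969.6 ± 86.2 CPM in CM mice and 1048 ± 147 CPM in the CM/miR-126Δ/Δ group (mean ± SD, n = 5 each; log2 fold change 0.11, 95% interval −0.12 to 0.35, adjusted p = 0.787). Its log2 fold change was 0.02 with the length trend removed, 0.05 without CM/miR-126Δ/Δ mouse 2 and 0.20 without mouse 4.

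The cytokinesis genes included the 1 gene with p under 0.05. Ect2, the exchange factor that activates RhoA for the cleavage furrow, had the smallest p of all 45. Ect2 was at 88.4, 94.8, 90.5, 95.3 and 92.02 CPM in CM mice 1 to 5 and at 125, 116, 100.3, 101 and 87.8 CPM in CM/miR-126Δ/Δ mice 1 to 5. CM/miR-126Δ/Δ mice 1 to 4 lay above all CM mice and mouse 5 below them. The means were 92.2 ± 2.896 CPM in CM mice and 106 ± 14.5 CPM in the CM/miR-126Δ/Δ group (mean ± SD, n = 5 each; log2 fold change 0.20, 95% interval 0.03 to 0.37, adjusted p = 0.746), so Ect2, with an unadjusted p of 0.0256 from edgeR, did not pass the correction over all genes. It was higher in 4 of 5 numbered pairs, and p was 0.0633 without CM/miR-126Δ/Δ mouse 1 and 0.0704 without mouse 2. Prc1, which bundles microtubules of the central spindle, had the highest mean RPKM of the group, 31.6. Prc1 was at 91.4, 93.8, 91.9, 106 and 101 CPM in CM mice 1 to 5 and at 112, 105, 75.8, 95.5 and 83.4 CPM in CM/miR-126Δ/Δ mice 1 to 5. Its ranges overlapped, with CM/miR-126Δ/Δ mouse 1 highest and mouse 3 lowest, and means of 96.9 ± 6.46 CPM in CM mice and 94.4 ± 14.99 CPM in the CM/miR-126Δ/Δ group (mean ± SD, n = 5 each; log2 fold change −0.04, 95% interval −0.24 to 0.16, adjusted p = 0.939). The sign for Prc1 turned without CM mouse 4 and without CM/miR-126Δ/Δ mouse 3 or mouse 5. Anln and Racgap1, which also act at the furrow, had log2 fold changes of 0.08 and −0.01.

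**Figure D3:**
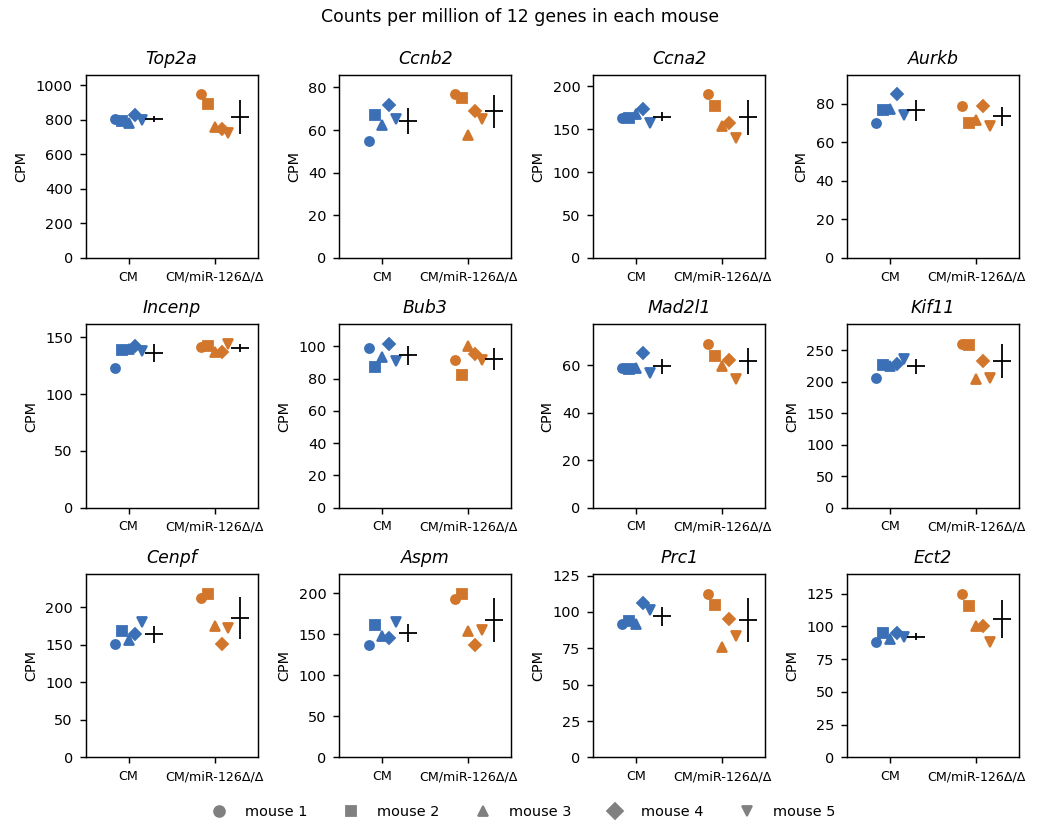
CPM (y axis, linear from 0) of 12 of the mitotic genes in each LSK library, with CM mice in blue, CM/miR-126Δ/Δ mice in orange, symbols for mice 1 to 5, and the mean ± SD as a black cross beside each group of 5. In Top2a, Cenpf, Aspm and Ect2 the CM/miR-126Δ/Δ mice 1 and 2 stand above all CM mice, and in each of the 12 genes the groups overlap.

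The same mice were high or low across most of the genes. The mean over the 45 genes of log2 CPM relative to the average of the 10 mice was −0.12, −0.004, −0.001, 0.05 and −0.005 in CM mice 1 to 5 and 0.18, 0.11, −0.11, 0.02 and −0.12 in CM/miR-126Δ/Δ mice 1 to 5. The CM/miR-126Δ/Δ mice thus held the 2 highest values and 1 of the 2 lowest, and CM mouse 1 the other. CM/miR-126Δ/Δ mouse 1 was the highest of all 10 mice for 25 of the 45 genes, and the lowest mouse was CM mouse 1 for 15, CM/miR-126Δ/Δ mouse 5 for 14 and CM/miR-126Δ/Δ mouse 3 for 9. The 45 genes together took 0.459% to 0.607% of all counts, the ends of this range being CM/miR-126Δ/Δ mice 3 and 1. Between mice of the same number, CM/miR-126Δ/Δ minus CM was 0.30, 0.11, −0.11, −0.03 and −0.11 for numbers 1 to 5, with 43, 34, 8, 16 and 9 of the 45 genes higher in the CM/miR-126Δ/Δ mouse. In 2 of the 5 pairs the group was therefore higher and in 3 lower. Mice 1 to 3 of each genotype were female and 4 and 5 male by Xist and Y-linked genes. The mean level was −0.042 in female and 0.023 in male CM mice, and 0.061 and −0.051 in CM/miR-126Δ/Δ mice. Female CM/miR-126Δ/Δ mice 1 to 3 differed among themselves, at 0.18, 0.11 and −0.11, so their mean depends on single mice. At an adjusted p under 0.05, 0 of 45 genes passed an interaction of genotype with sex, beside 0.00533% of all genes (edgeR). At an unadjusted p under 0.05 there were 5 of 45, beside 2.57% of all genes, namely Cenpf, Hmmr, Aspm, Ect2 and Ttk. In each of these the fitted genotype difference was lower in male than in female mice, as in all other mitotic genes except Cdc25b, Birc5 and Spc24. The genes vary together and each genotype had 2 male mice, so these 5 are not independent results. A count of this interaction with the mice paired by number is not given.

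**Figure D4:**
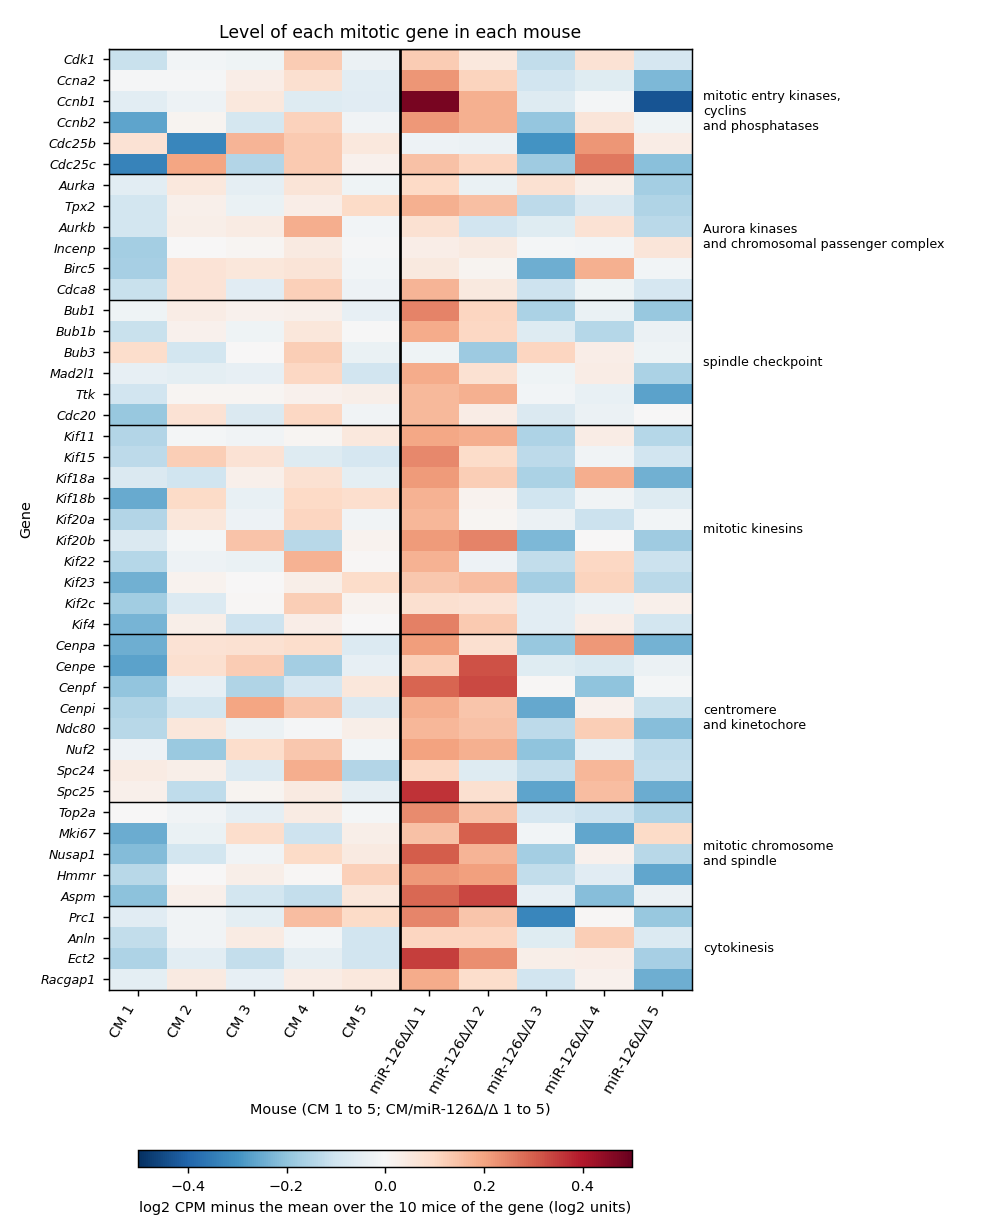
Level of each of the 45 mitotic genes (rows, grouped by role) in each of the 10 mice (columns), as log2 CPM minus the gene's mean over all mice, with red for higher and blue for lower. CM/miR-126Δ/Δ mouse 1 is red in 43 of 45 rows, and CM mouse 1 and CM/miR-126Δ/Δ mice 3 and 5 are mostly blue.

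As a description of how closely the genes moved together, the correlation of their deviations from the genotype mean was taken for each pair of genes over the 10 mice. The mice are shared by all pairs, and depth and composition of a library act on all genes at once. The median r was 0.62 over the 990 pairs of mitotic genes, beside 0.001 over pairs of expressed genes and 0.44 among the DNA replication genes. It was 0.49 within the CM mice and 0.74 within the CM/miR-126Δ/Δ mice, 5 mice each, and 0.53 when CM/miR-126Δ/Δ mouse 1 was left out of the 10. Between mitotic and replication genes it was 0.11. Nusap1, a microtubule-bundling protein of the spindle, had the highest mean r with the other 44 genes, 0.72, followed by Kif11 and Kif4 at 0.70 each. Bub3 was the one gene with a negative mean r, −0.32. Cdc25b, the phosphatase that starts mitotic entry, was at 0.09 and Mki67 at 0.29, so these 3 genes followed the common movement least.

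Markers of other cell types were read in the same libraries. The list with the highest sum outside LSK was that of granulocytes, led by Mpo at a mean of 2172 CPM. Myeloid-biased progenitors already make this enzyme. All 9 genes of the list were detected, Camp not in every library. Between libraries S100a8 ran from 0.479 to 72.2 CPM, S100a9 from 0.566 to 109 and Ltf from 0.0871 to 65.2. Ngp ran from 0.303 to 78.6 CPM and Camp from 0 to 22.7. In proportion, ranges were narrower for Mpo (1231 to 3622 CPM), Prtn3 (159.99 to 296), Ctsg (167 to 402) and Elane (23.96 to 129). The sum, mainly that of Mpo, does not show these ranges, and their part in the spread between mice was not tested. The sum was 2747, 1940, 3673, 2978 and 2528 CPM in CM mice 1 to 5. It was 1605, 2601, 4451, 2542 and 3042 CPM in CM/miR-126Δ/Δ mice 1 to 5. It was lowest of the 10 in CM/miR-126Δ/Δ mouse 1, where the mitotic genes were highest, and highest in CM/miR-126Δ/Δ mouse 3, where they were low, and its part in the spread was not tested. The share of counts on the ribosomal RNA gene Rn45s was 22.6% in CM/miR-126Δ/Δ mouse 3 and 14.8% to 18.6% in the other 9 mice, and its part was not tested either. Erythroid markers summed to 27.4 to 146 CPM, with Hba-a1 and Hbb-bt listed at 0, B cell markers to 24.5 to 42.4 CPM and T and NK cell markers to 42.4 to 75.5 CPM. The sums were 104 to 257 CPM for monocyte and macrophage markers and 113 to 224 CPM for megakaryocyte markers. They were 132 to 289.8 CPM for mast cell and basophil and 183 to 232 CPM for endothelial markers. Several of these sums were mainly that of 1 gene, so they do not measure the share of such cells. On average Pecam1 was at 191 CPM and the other endothelial genes at 0.755 to 14.2. Itga2b was at 158 CPM and the other megakaryocyte genes at 0.448 to 13.6. Nkg7 was at 48.2 CPM and the other T and NK cell genes at 0.372 to 4.95. Cd79b was at 23.6 CPM and the other B cell genes at 0.557 to 2.44. The monocyte and macrophage sum was lowest in CM/miR-126Δ/Δ mouse 1. The megakaryocyte sum was lowest in CM/miR-126Δ/Δ mouse 3 and the endothelial sum in CM mouse 1. The part of these lists in the spread was not tested.

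Of 117 further mitosis genes, all expressed, 0 passed the call and 0 had an adjusted p under 0.05. At an unadjusted p under 0.05, Depdc1b and Cit were higher and Pkmyt1 was lower in CM/miR-126Δ/Δ cells. These were 2 and 1 of the 117, beside 3.29% and 3.32% of all genes. With the mice paired by number, 5 of the 117 were higher and 2 lower, beside 4.27% and 4.62% of all genes in that fit. The median over the 117 was 0.018, with 0.0007 without CM/miR-126Δ/Δ mouse 1 and 0.046 with upper-quartile factors. Those factors put 84 above and 33 below 0, and 59 were above 0 without that mouse. In the fit reported, 71 were above and 46 below 0. By role, 14 of 17 genes of cohesin, condensin and their protectors were above 0 (9 without CM/miR-126Δ/Δ mouse 2), 22 of 30 spindle, centrosome and cytokinesis genes, 7 of 12 regulators of mitotic entry, 5 of 9 of the MuvB, MYBL2 and FOXM1 regulators (3 without that mouse), 15 of 31 kinetochore and checkpoint genes (10 without CM/miR-126Δ/Δ mouse 1) and 8 of 18 of the anaphase-promoting complex and anaphase, beside 42.5% of expressed genes. Depdc1b, which is known from dividing cells, was higher in 5 of 5 numbered pairs. Depdc1b was at 45.8, 42.1, 46.6, 51.6 and 51.05 CPM in CM mice 1 to 5 and at 58.3, 61.2, 51.3, 53.6 and 53.97 CPM in CM/miR-126Δ/Δ mice 1 to 5. CM/miR-126Δ/Δ mouse 3 was below CM mouse 4, and the other 4 lay above all CM mice, with means of 47.4 ± 3.97 CPM in CM mice and 55.7 ± 3.98 CPM in the CM/miR-126Δ/Δ group (mean ± SD, n = 5 each; log2 fold change 0.23, 95% interval 0.08 to 0.38, adjusted p = 0.641). Pkmyt1 encodes the kinase MYT1, which holds CDK1 inactive before mitosis. Pkmyt1 was at 35.5, 36.2, 38.6, 35.6 and 34.04 CPM in CM mice 1 to 5 and at 34.5, 25.8, 23.2, 33.3 and 26.6 CPM in CM/miR-126Δ/Δ mice 1 to 5. It was lower in 5 of 5 numbered pairs, with CM/miR-126Δ/Δ mice 2, 3 and 5 well below and mice 1 and 4 near the CM range, and means of 35.99 ± 1.68 CPM in CM mice and 28.7 ± 4.92 CPM in the CM/miR-126Δ/Δ group (mean ± SD, n = 5 each; log2 fold change −0.33, 95% interval −0.55 to −0.11, adjusted p = 0.661). Their unadjusted p was 0.00487 for Depdc1b and 0.00679 for Pkmyt1, and neither passed the correction over all genes. Both genes were named because of these p values, so their direction in all 5 pairs is not separate support.

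The DNA replication genes, which belong to the preceding wave of the cell cycle, were set beside the mitotic genes. Of 46, 0 passed the call and 0 had an adjusted p under 0.05, and 1 was lower at an unadjusted p under 0.05, beside 3.32% of all genes, or 4 with the mice paired by number, beside 4.62%. Fitted values were above 0 for 4 and below 0 for 42, with a median of −0.071, and with the length trend removed 15 were above 0, with a median of −0.038. With the upper-quartile scaling 6 were above 0 and the median was −0.043. Their mean level was 0.13, 0.07, −0.02, 0.08 and −0.10 on the log2 scale in CM mice 1 to 5 and 0.03, −0.05, −0.08, 0.007 and −0.08 in CM/miR-126Δ/Δ mice 1 to 5, so CM mouse 1 was the highest mouse for replication genes and the lowest for mitotic genes. Without CM mouse 1 the median was −0.025, with 13 genes above 0. The higher coefficient of variation was in CM/miR-126Δ/Δ mice for 14 of these 46 genes (30.4%), against 84.4% of the 45 mitotic genes and 77 of the 117 further mitosis genes (65.8%), whose median was 7.18% in CM and 9.29% in CM/miR-126Δ/Δ mice. Gins1, a subunit of the replicative helicase complex that is named after its values were seen as the 1 gene with p under 0.05, was at 22.1 ± 2.12 CPM in CM mice and 19.2 ± 1.28 CPM in the CM/miR-126Δ/Δ group (mean ± SD, n = 5 each; log2 fold change −0.20, 95% interval −0.39 to −0.01, adjusted p = 0.748). Its log2 fold change was −0.13 with the length trend removed, with an unadjusted p of 0.178, and its unadjusted p ran from 0.0154 to 0.110 with each mouse left out (edgeR).

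**Figure D5:**
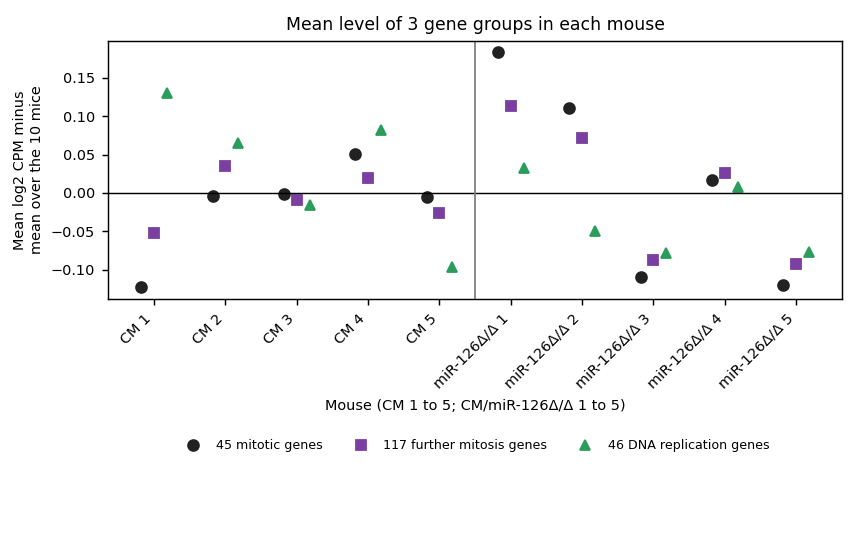
Mean log2 CPM relative to the average of the 10 mice (y axis, log2 units) of the 45 mitotic genes (circles), 117 further mitosis genes (squares) and 46 DNA replication genes (triangles) in each mouse (x axis). The mitotic genes run from −0.12 in CM mouse 1 to 0.18 in CM/miR-126Δ/Δ mouse 1, and CM mouse 1 shows the widest gap between mitotic and replication genes.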

How the data were processed

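LSK libraries (rRNA-depleted total RNA) from 5 mice of each genotype, CM and CM/miR-126Δ/Δ, were compared, with genotype and mouse number from the labels. The authors trimmed reads with Trimmomatic and FASTP, aligned them to mm10 with TopHat and took gene counts over RefSeq annotation with HTSeq (0.6.1p1 per the submitters' processing notes). The deposited counts are whole reads per gene without normalization. The authors' exon length per gene, in bases, is deposited beside them as another measure. A second deposited table, in which each count is divided by 1 constant per library, was not used. Whether strand was used in the counting is not given in the sources used here, so overlapping genes can share reads. That separate mice gave the libraries is from the methods.

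The 18747 genes with 1 or more counts in some library entered an edgeR 4.0.16 fit in R 4.3.3 (TMM, quasi-likelihood F-test in the edgeR 3 form, two-sided, genotype only), adjusted by Benjamini-Hochberg over all of them. CPM and RPKM were computed from counts, TMM-scaled library size and exon length, and 0.1 was added to CPM before log2. The script was tested on simulated data. No pair of mice of a genotype agreed within sampling noise (20 pairs, lowest chi-square 11.1 per degree of freedom). The limit of 3 counts was 0.0904 to 0.127 CPM per library and covers counting error only, since reads carry no molecular identifiers. Total counts were higher in CM mice (two-sided exact permutation test, n = 5 each, p = 0.0476), and the Rn45s share was 16.8% ± 1.35 in CM and 18.7% ± 2.31 in CM/miR-126Δ/Δ mice (mean ± SD, exact permutation test, p = 0.135).

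Mice of both genotypes share the numbers 1 to 5 in the labels. Over 11682 genes, deviations from the genotype mean correlated between mice of the same number at 0.17 to 0.47 (mean −0.085 between different numbers), so the numbers were taken to pair the mice, and sex follows the numbers. Alternatives were RLE and upper-quartile factors, DESeq2 1.42.0, filterByExpr, only expressed genes (RPKM 1 or more), the mouse number as a replicate block, sex, the edgeR 4 quasi-likelihood, Rn45s left out, the trend with exon length removed, no RPKM requirement and each mouse left out. The spread without each mouse, the 50-base limit for CHR letters and the search for seed letters were added after the data were seen.

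In each role the gene with the highest mean RPKM and the one with the smallest p are given in full, and from the other lists those with p at or below 0.01. Ccnb1, Cdk1, Mki67, Gins1, Cit, Anln, Racgap1 and the other genes mentioned were chosen after their values were seen. The genes and lists were chosen with earlier results of these data known. Promoters and the microRNA are from RefSeq GRCm38.p6, and 3′ untranslated regions are from GENCODE M1 transcripts, of which sequences alone were used. Promoters of Ccna2, Cdc25c, Tpx2, Aurkb, Incenp, Kif20a and Spc24 were not analysed here, nor were protein motifs. Figures were drawn with matplotlib 3.10.9 in Python 3.11.15.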

Additional observations from a re-analysis of the deposited data

Results flagged for a closer look

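In 2 of 50 groups of 5 mice examined (the 16 genes named by rule, Mki67, Ccnb1, Cdk1 and Gins1, the group means, total counts and the Rn45s share, in each genotype), 1 mouse lay apart from the rest of its group by Dixon's criterion, and chance alone would mark about 2.5 of 50 at this 5% level. Incenp in CM mouse 1 was at 122.92 CPM, while the other CM mice lay between 137.8 and 142.8 CPM. Mad2l1 in CM mouse 4 was at 65.06 CPM, while the other CM mice lay between 56.7 and 58.9 CPM. CM mouse 1 was also the lowest CM mouse for 33 of the 45 mitotic genes, and CM mouse 4 the highest for 25.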

How the results depend on the processing

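The count of 0 mitotic, further mitosis and replication genes called held under every alternative run for it, that without an RPKM requirement being run for the mitotic genes alone. DESeq2 gave 0 of the 45 mitotic genes with an adjusted p under 0.05, and 1 at p under 0.05. The median log2 fold change of the mitotic genes was 0.026 to 0.063 over the other settings and −0.009464 to 0.06058 with each mouse left out. The RLE and upper-quartile scalings moved the median over expressed genes from −0.019 to −0.010 and 0.009, and the mitotic median stayed 0.053 to 0.054 above it. Counts above 0 among the 45 were 41 (upper-quartile, filterByExpr or RPKM at least 1), 40 (length trend removed), and with each mouse left out from 20 (without CM/miR-126Δ/Δ mouse 1) to 43 (without CM mouse 4).

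At p under 0.05, 2 mitotic genes passed with upper-quartile factors, and 0 to 4 with each mouse left out. The share of all genes at this p is given above for the fit reported and the replicate block alone. Counts from the other settings therefore cannot be set against it. Further mitosis genes were 3 in the fit reported and 5 with RLE factors, 8 with upper-quartile factors, 6 with filterByExpr, 6 with only genes at RPKM of at least 1, 5 with DESeq2, 7 with the replicate block, 5 with the block and the length trend removed, and 2 to 11 with each mouse left out. Replication genes were 1 in the fit reported and 0 with upper-quartile factors, 0 with only genes at RPKM of at least 1, 0 with the length trend removed, 0 with that and the replicate block, 4 with the replicate block, 2 with sex and 0 to 6 with each mouse left out. The replicate block changed no other call. The cause of these changes was not tested.

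Of 420 values of 20 genes (the 16 named by rule, and Mki67, Ccnb1, Cdk1 and Gins1), 398 kept their direction and 22 turned. Ccna2 turned to 0.0181 (upper-quartile), 0.008127 (filterByExpr), 0.01023 (RPKM at least 1), 0.009585 (length) and 0.001756 (length and replicate block), Bub3 to 0.01866 (length) and 0.0172 (length and replicate block) and Top2a to −0.005357 (length and replicate block). With each mouse left out the ranges were −0.05967 to 0.0411 for Ccna2, −0.06542 to 0.005932 for Bub3, −0.001525 to 0.09907 for Cenpa, −0.02795 to 0.06382 for Top2a, −0.09724 to 0.03111 for Prc1 and −0.02567 to 0.1906 for Ccnb1. Without a change of sign, Cenpa was at 0.11 with the length trend removed, Cdk1 ran from 0.001 to 0.07 with each mouse left out, lowest without CM/miR-126Δ/Δ mouse 1, and upper-quartile factors gave 0.05 for Cdk1, 0.07 for Incenp, 0.08 for Mad2l1 and Kif11 and −0.03 for Aurkb. With 5 mice a genotype, differences smaller than the intervals given could not be detected.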
